A study of Mus musculus with 8 samples.

Results

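The genes described here encode the proteins of the mitochondrial ribosome. Members were the rows of the deposited expression table whose gene name starts with Mrpl or Mrps followed by a digit, without the 1 name that holds -ps, which gave 77 genes of 34745. By their known place in the mammalian mitoribosome, 50 belong to the large subunit and 26 to the small subunit, and Mrps36 was not placed because its product is now known as a subunit of the 2-oxoglutarate dehydrogenase complex. RNA was sequenced from 8 libraries of wild-type B6 mouse fetal liver: 2 of ILC1/3P, 3 of ILCP and 3 of CLP. ILC1/3P, sorted as CD94-positive and PD-1-negative, and ILCP, sorted as PD-1-positive and CD94-negative, are progenitors of innate lymphoid cells that lack Flt3 and carry α4β7; CLP are common lymphoid progenitors, sorted as Flt3-positive. All 3 groups were sorted as live, lineage-negative cells with CD45 and CD127 and without CD25. An age in weeks stands in the labels beside a fetal tissue, and neither the day of gestation nor the number of animals is given. P-values therefore measure the spread between these libraries, which may be technical.

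The mitoribosome translates the few messenger RNAs made from mitochondrial DNA, all of which encode membrane subunits of the respiratory chain and ATP synthase. Its ribosomal RNAs come from the mitochondrial genome, whereas its proteins are encoded in the nucleus, made in the cytosol and imported. Many of these proteins have a counterpart in the bacterial ribosome, and others are found in mitochondria and not in bacteria. Lymphocytes and their progenitors need new respiratory-chain subunits when they grow and divide, and innate lymphoid cell precursors that carry PD-1 are known to give rise to the helper-like innate lymphoid cells.

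Total counts were 6310739 and 8082476 in ILC1/3P, 6043940 to 6905448 in ILCP and 4991939 to 7167619 in CLP. Of the sort markers, Klrd1, which encodes CD94, averaged 1405 ± 314 CPM in ILC1/3P, 44.6 ± 26.2 in ILCP and 52.2 ± 12.4 CPM in CLP (mean ± SD of 2, 3 and 3 libraries), where CPM is the number of counts per 1000000 after scaling by the trimmed mean of M-values (TMM). Flt3 was at 0 in both ILC1/3P libraries with a mean of 0.43 CPM in ILCP, against 459 ± 96.0 CPM in CLP. Pdcd1, which encodes PD-1, was at 13.8 ± 5.15 CPM in ILC1/3P and 77.6 ± 31.4 in ILCP, and at 0 in CLP, so it was detected in the ILC1/3P libraries sorted without PD-1. Group means in ILC1/3P, ILCP and CLP were 214, 484 and 434 CPM for Il7r (CD127), 319, 228 and 245 CPM for Ptprc (CD45), and 2.30, 7.55 and 0 CPM for Il2ra (CD25). For the α4β7 chains they were 134, 441 and 371 CPM for Itga4, and 52.5, 72.8 and 3.94 CPM for Itgb7. The TMM factors set ILC1/3P apart, at 0.67 and 0.75 against 1.05 to 1.17 in ILCP and 1.09 to 1.23 in CLP. Counts in ILC1/3P also lay more on genes with short annotated transcripts. The count-weighted geometric mean of each gene's longest annotated transcript was 1829 and 1681 bases in ILC1/3P. It was 2114 to 2276 bases in ILCP and 2203 to 2409 bases in CLP. The 8 myeloid markers summed to 46.3 and 70.5 CPM in ILC1/3P and 11.5 to 20.6 in ILCP, against 667 to 910 CPM in CLP, and Elane and Ctsg were at 0 in every ILC1/3P and ILCP library. Mpo alone averaged 534 CPM in CLP. The myeloid markers did not all follow their sum. Of the 6 tested, 1 was called higher and 2 lower in ILC1/3P over CLP, against 11.8% and 11.7% of all genes. In ILCP over CLP, 0 were called higher and 3 lower, against 3.91% and 2.87%. Their log2 fold changes ran from −12.2 to 7.31 in ILC1/3P over CLP and from −14.8 to 6.85 in ILCP over CLP. The 8 mast cell, basophil and megakaryocyte markers summed to 199 and 273 CPM in ILC1/3P and 537 to 672 in ILCP, against 0.18 to 2.96 CPM in CLP; most of this was Cpa3, and Mcpt8, Fcer1a and Ms4a2 were at 0 in all 8 libraries. The 8 erythroid markers summed to 18.1 and 27.1 CPM in ILC1/3P and 5.68 to 6.76 in ILCP, against 7.35 to 16.4 CPM in CLP, and Alas2, Klf1 and Epor were among those at 0 in ILC1/3P. The 7 hepatocyte markers summed to 25.97 and 38.8 CPM in ILC1/3P and 28.2 to 73.8 in ILCP, against 72.6 to 91.4 CPM in CLP, with Alb and Ttr at 0 in ILC1/3P and ILCP. The 7 endothelial and stromal markers summed to 52.7 to 124 CPM, and only these sums overlapped between the groups. Of the 2 markers tested, 1 was called higher (log2 fold change 11.6) and 1 lower (−1.37) in ILC1/3P over CLP. In ILCP over CLP, 1 was called higher (11.1) and 0 lower. Over all genes, 11.8% were called higher and 11.7% lower in ILC1/3P over CLP, and 3.91% and 2.87% in ILCP over CLP. The part of these differences in the results was not tested. In bulk libraries, fewer cells that express a gene and less RNA per cell cannot be told apart.

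All 77 members had counts in every library and passed the filter on low counts. Together they took 1.68% and 1.78% of all counts in ILC1/3P, against 1.03%, 1.22% and 1.07% in ILCP and 0.97%, 1.05% and 1.15% in CLP. Both ILC1/3P libraries lay above all 6 others on this unscaled measure, and the ILCP and CLP libraries overlapped. After TMM scaling, the large subunit summed to 15643 and 18759 CPM in ILC1/3P and 5997 to 7987 in ILCP, against 5604 to 7497 CPM in CLP. The small subunit summed to 6644 and 7681 CPM in ILC1/3P and 2816 to 3616 in ILCP, against 2303 to 3034 CPM in CLP. The ratio of the large to the small sum was 2.35 and 2.44 in ILC1/3P, 2.13 to 2.34 in ILCP and 2.43 to 2.68 in CLP, so the ILC1/3P ratios lay above all ILCP ratios and overlapped those of CLP. Within the 3 groups, Pearson correlations of log2 CPM over the 77 members ran between 0.90 and 0.97 for pairs of libraries, and between groups they ran from 0.63 to 0.89, as a description over genes that share depth and library.

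**Figure D1:**
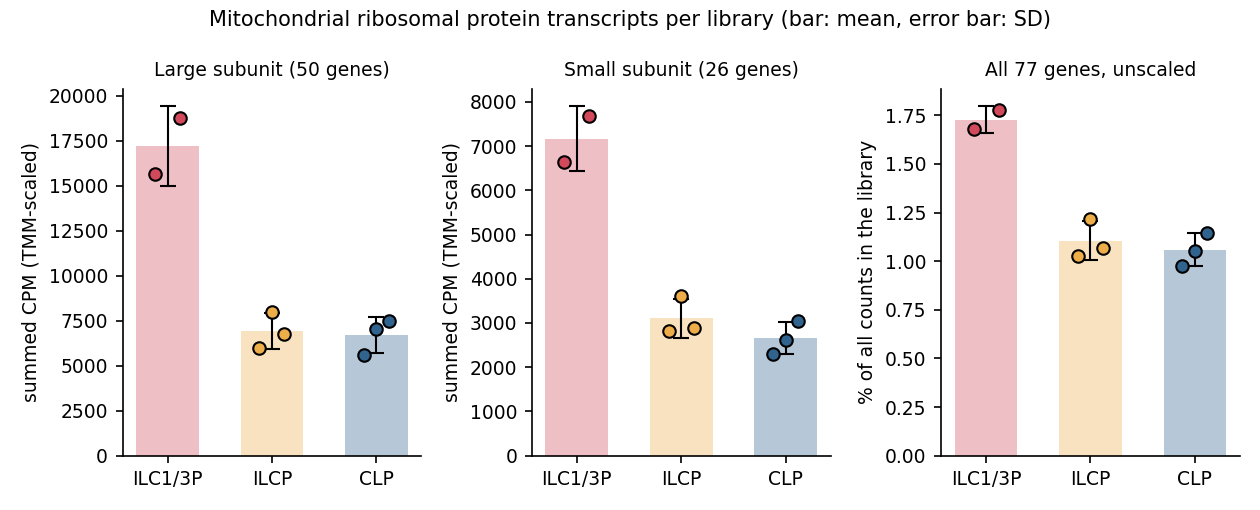
Summed level of mitochondrial ribosomal protein transcripts in each library: TMM-scaled CPM of 50 large-subunit genes (left) and 26 small-subunit genes (middle), and the unscaled percentage of all counts taken by the 77 genes (right). Points are libraries, bars group means and error bars SD (n = 2 for ILC1/3P, 3 for ILCP and 3 for CLP); both ILC1/3P points lie above all others in each panel.

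Levels of different members were compared per length. In the FPKM of the authors' deposited table, Mrpl42 had the highest group mean in each group, at 1962 FPKM in ILC1/3P, 559 in ILCP and 484 in CLP. Averaged over the 8 libraries, with ILC1/3P far above the rest, it was at 881 FPKM, followed by Mrpl36 at 421, Mrpl32 at 352, Mrpl34 at 304 and Mrps16 at 301 FPKM. Mrpl36 and Mrpl34 are the counterparts of small bacterial large-subunit proteins, Mrpl32 is cleaved after import before it joins the ribosome, and Mrps16 is a small-subunit protein with a bacterial counterpart. At the low end stood Mrps36 at 1.06, Mrps5 at 2.16 and Mrps2 at 5.02 FPKM, the last pair small-subunit members with a bacterial counterpart, and the median of the 77 was 45.6 FPKM. For Mrpl42, the length implied by these values was 666 bases, beside 3277 bases for its longest annotated transcript. The gene length implied by these values exceeded the union of annotated exons in 59 of 77 members, so the order depends on how length was set. Per kilobase of the longest annotated transcript, the leading member differed between groups: Mrps18c in ILC1/3P, at 1328 CPM per kb, and Mrpl36 in ILCP and CLP, at 257 and 351 CPM per kb. Mrps18c came 3rd of 77 in ILCP, at 249 CPM per kb, and 4th in CLP, at 226 CPM per kb. Mrpl42 came 10th in ILC1/3P, 24th in ILCP and 28th in CLP on this scale. Averaged over all libraries, Mrps36, Mrps5 and Mrps2 were the lowest on this scale too. Mrps36 had 1.81 and 2.60 CPM in ILC1/3P and 4.69, 2.21 and 3.09 in ILCP, against 1.81, 3.31 and 2.07 CPM in CLP, and the groups overlapped.

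More members of the mitochondrial ribosome were higher than lower in ILC1/3P, both over CLP and over ILCP. In ILC1/3P, 41 of 77 members were higher and 6 were lower than in CLP at an adjusted p under 0.05 (edgeR quasi-likelihood test, Benjamini-Hochberg over the 13436 genes tested), and 30 were not called. Over all genes tested, 11.8% were called higher and 11.7% lower, 23.5% in either direction. A log2 fold change above 0 was found in 59 members, against 43.4% of all genes. The median log2 fold change of the members was 1.01, beside −0.25 over all genes. The groups did not overlap for 52 members that were higher in ILC1/3P and 11 that were lower, against 23.3% and 29.1% of all genes. Called increases ranged from 0.82 to 3.65 on the log2 scale.

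Among the large-subunit genes, 27 of 50 were higher and 4 lower, with a median log2 fold change of 1.09, and among the small-subunit genes 14 of 26 were higher and 2 lower, with a median of 0.92. Members with a bacterial counterpart were called higher in 28 of 47 cases and lower in 1, with a median of 1.22. Mitochondria-specific members were called higher in 13 of 29 cases and lower in 5, with a median of 0.65. The 18 members with a pseudogene copy in the annotation were called higher in 14 cases and lower in 0 (median 1.54), and the 34 with neither a copy nor an exon overlap in 16 and 4 (median 0.62). No test of the difference between these classes was made, and transcripts of the homologous and specific classes differed in length, with medians of 1708 bases for members with a bacterial counterpart and 2114 bases for mitochondria-specific members.

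Of the large-subunit genes with a bacterial counterpart, Mrpl27 changed most. It encodes the counterpart of bacterial L27, which reaches towards the site of peptide bond formation. Mrpl27 (chr11:94653767-94660089, mm10) had 355 and 726 CPM in ILC1/3P and 98.0, 113 and 89.6 in ILCP, against 51.8, 76.8 and 68.7 CPM in CLP. The 3 groups did not overlap, and the ILC1/3P libraries were the highest, although they lay far apart from each other. The log2 fold change over CLP was 3.04 ± 0.33 (SE, adjusted p = 8.64e-05, edgeR). Mrpl27 shares 447 bases at 98.9% identity with a pseudogene and overlaps exons of Eme1 on the other strand.

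Mrpl33 (chr5:31596935-31664384) encodes the counterpart of bacterial L33. It had 1166 and 1265 CPM in ILC1/3P and 209, 394 and 231 in ILCP, against 122, 159.8 and 253 CPM in CLP. Both ILC1/3P libraries lay far above the highest other library, and ILCP and CLP overlapped. The log2 fold change over CLP was 2.77 ± 0.35 (adjusted p = 0.00022, edgeR). Mrpl33 shares 261 exon bases with another annotated gene on the same strand.

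A trio of mitochondria-specific proteins of the large subunit were among the 8 largest increases. Mrpl53 (chr6:83109040-83109939) had 119.8 and 216 CPM in ILC1/3P and 22.01, 84.3 and 54.3 in ILCP, against 22.19, 9.37 and 8.29 CPM in CLP, a log2 fold change over CLP of 3.65 ± 0.59 (adjusted p = 0.0010, edgeR). Its ILC1/3P libraries were the highest, while ILCP and CLP overlapped. Its exons overlap those of 2 other annotated genes by 710 bases in sum, where a base shared with both counts for each. Reads of Mrpl53 could therefore be shared with these genes. Mrpl41 (chr2:24974117-24975098) had 659 and 696 CPM in ILC1/3P and 131, 191 and 154 in ILCP, against 62.8, 94.8 and 99.3 CPM in CLP. The 3 groups were fully separate and the ILC1/3P libraries lay close together. The log2 fold change over CLP was 2.98 ± 0.28, with the smallest adjusted p of the 77 members in this comparison (3.4e-05, edgeR). Mrpl42 (chr10:95480806-95501927) had 1741 and 1939.8 CPM in ILC1/3P and 269.7, 477 and 272 in ILCP, against 192, 307 and 363 CPM in CLP. ILCP and CLP overlapped, and the log2 fold change of ILC1/3P over CLP was 2.68 ± 0.33 (adjusted p = 0.00019, edgeR). Mrpl41 and Mrpl42 each have a pseudogene copy of over 95% identity.

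In the small subunit, the largest increases belonged to Mrps18c, Mrps12 and Mrps14. Mrps18c, a paralogue of Mrps18a and Mrps18b related to bacterial S18, had 929 and 1248 CPM in ILC1/3P and 178, 241 and 193 in ILCP, against 129, 194 and 232 CPM in CLP. Its log2 fold change over CLP was 2.56 ± 0.29 (adjusted p = 0.00012, edgeR), and 250 bases of it overlap another annotated gene on the same strand. Neither paralogue was called: the log2 fold change over CLP was 0.59 ± 0.32 for Mrps18b and 0.05 ± 0.32 for Mrps18a, which sits in the large subunit. Mrps12, whose bacterial counterpart S12 lines the decoding site, had 204 and 274 CPM in ILC1/3P and 99.4, 102 and 84.8 in ILCP, against 53.1, 35.6 and 49.1 CPM in CLP. Each ILC1/3P library exceeded each ILCP library, and each of these exceeded each CLP library. The log2 fold change of ILC1/3P over CLP was 2.38 ± 0.28 (adjusted p = 0.00016, edgeR), and Mrps12 has neither a pseudogene copy nor an exon overlap. Mrps14, which encodes the counterpart of bacterial S14, was higher by 2.21 ± 0.29.

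**Figure D2:**
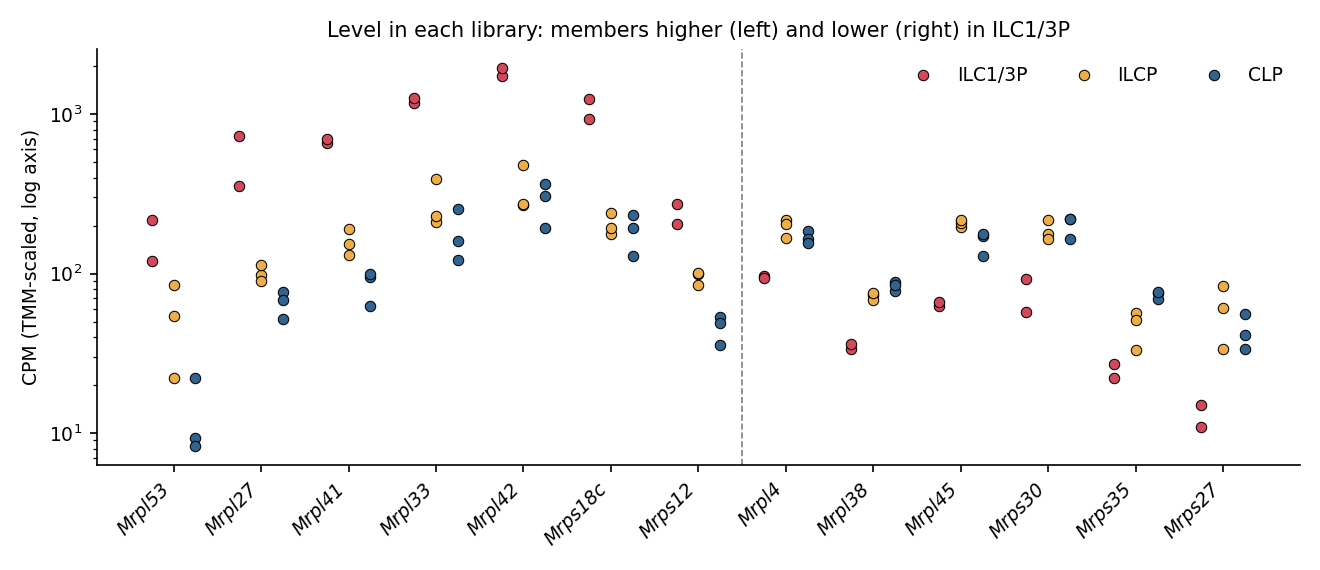
CPM (TMM-scaled, log axis) in each library for 7 members called higher (left of the dashed line) and the 6 called lower (right) in ILC1/3P over CLP. Every ILC1/3P point lies outside the range of the CLP points for these 13 genes.

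The 6 members called lower than in CLP were 5 mitochondria-specific proteins and Mrpl4, the counterpart of bacterial L4 at the exit tunnel. Mrps27, an RNA-binding pentatricopeptide repeat protein of the small subunit, had 15.1 and 10.9 CPM in ILC1/3P and 83.4, 61.3 and 33.7 in ILCP, against 41.4, 56.0 and 33.9 CPM in CLP. Its log2 fold change over CLP was −1.75 ± 0.48 (adjusted p = 0.022, edgeR), and 506 bases overlap a transcript on the other strand. Both ILC1/3P libraries were below all others for it. The call was lost without CLP replicate 2 and without ILC1/3P replicate 2.

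Mrpl45, which anchors the large subunit to the inner membrane near the exit tunnel, had 62.6 and 66.1 CPM in ILC1/3P and 196, 209 and 216 in ILCP, against 129, 171 and 178 CPM in CLP, a log2 fold change over CLP of −1.31 ± 0.26 (adjusted p = 0.0038, edgeR). ILC1/3P was lowest and ILCP highest without overlap. Mrps30, which despite its name sits in the large subunit, had 93.1 and 57.6 CPM in ILC1/3P and 176, 216 and 164 in ILCP, against 166, 219 and 219 CPM in CLP, and its log2 fold change was −1.41 ± 0.30 (adjusted p = 0.0054, edgeR). Mrps30 shares 623 exon bases with a gene on the other strand.

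Mrps35, a mitochondria-specific small-subunit protein, had 26.9 and 22.19 CPM in ILC1/3P and 56.4, 33.3 and 51.0 in ILCP, against 75.3, 68.9 and 76.2 CPM in CLP, with a log2 fold change of −1.58 ± 0.37 (adjusted p = 0.0097, edgeR). For Mrps35 each ILC1/3P library lay below each ILCP library, and each of these below each CLP library; without ILC1/3P replicate 2 the call was lost. Mrpl38, a protein of the central protuberance of the large subunit, averaged 34.9 ± 1.73 CPM in ILC1/3P and 83.8 ± 5.04 CPM in CLP (SD, n = 2 and 3), a log2 fold change of −1.26 ± 0.30 (adjusted p = 0.0099, edgeR). Mrpl4 averaged 95.2 ± 2.15 CPM in ILC1/3P and 168 ± 14.8 CPM in CLP, a log2 fold change of −0.82 ± 0.25 (adjusted p = 0.034, edgeR), and its call was lost in 6 of the 8 fits that leave out 1 library.

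Scaling and transcript length bear on these counts. When TMM was replaced by library size alone, 26 members were higher and 12 lower in ILC1/3P over CLP, against 7.06% and 20.9% of all genes, the member median was 0.34 and the median of all genes was −0.93. A change of scaling moves the log2 fold changes of all genes nearly alike. The gap between the 2 medians, 1.27 under both scalings, therefore cannot test the scaling. Among transcripts up to 1 kb, 14 of 17 members were called higher and 0 lower with a median of 1.52; of the other 1133 tested genes of that length, 31.8% were called higher and 3.71% lower, with a median of 1.00. At 1 to 2 kb the member median was 0.67 beside 0.00, at 2 to 4 kb 0.57 beside −0.54, and over 4 kb 0.62 beside −0.28. In a fit with offsets that remove the trend on the longest transcript of each gene, 42 members were higher and 2 lower, against 13.7% and 8.19% of all genes, with a median of 0.96 beside 0.06. The lower calls of Mrps27 (−1.42), Mrps30 (−0.91), Mrpl45 (−0.76) and Mrpl4 (−0.28) were lost there, and those of Mrps35 and Mrpl38 remained. Of the higher calls, 5 were lost, those of Mrps21 (0.58), Mrpl34 (0.48), Mrpl22 (0.41), Mrpl54 (0.30) and Mrps15 (0.70), and 6 others were gained.

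**Figure D3:**
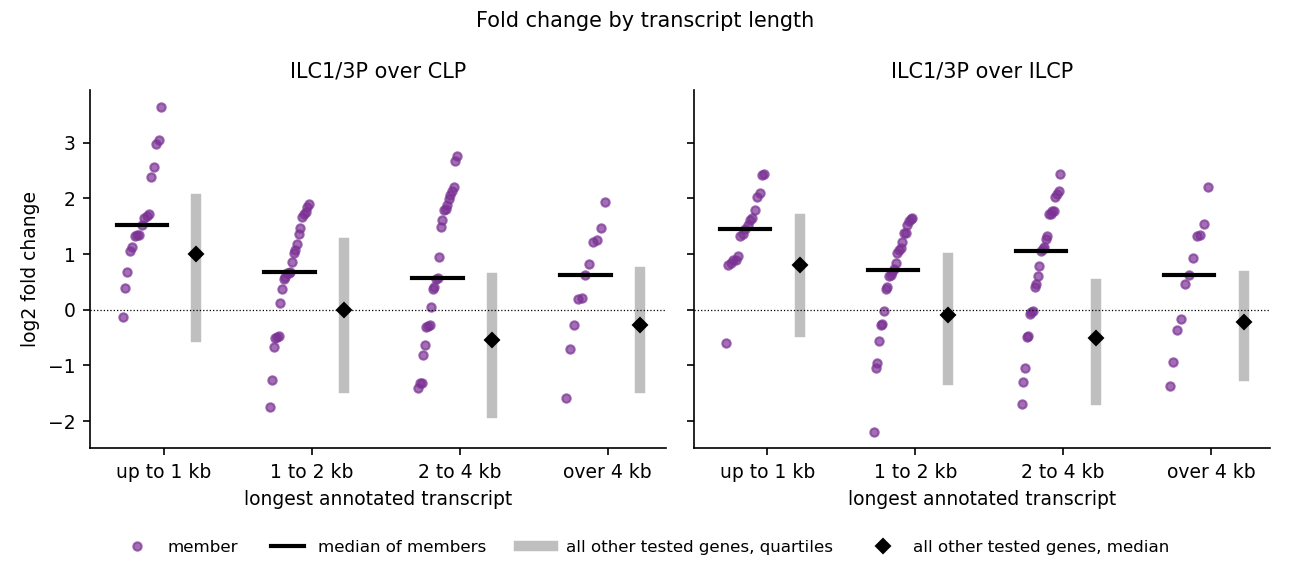
Log2 fold changes of the 77 members by length of the longest annotated transcript, for ILC1/3P over CLP (left) and over ILCP (right). Purple points are members and black bars their medians; diamonds and grey bars are the median and quartiles of all other tested genes of the same length, and the member median is above the diamond in each length class.

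Promoters were read from RefSeq windows (GRCm38.p6, 250 bases before to 50 after the start), which matched 68 of 77 members. Nuclear genes for mitochondrial proteins are known for promoters bound by ETS-family factors such as GABP, by NRF1 and by YY1. The ETS word CCGGAAG, on either strand, stood in 25 of 68 member windows (36.8%), against 12.1% of 15853 windows of protein-coding genes in the table and 9.08% of all 27025 windows. The YY1 word ATGGCGGC was in 12 member windows (17.6%, against 3.22% and 2.33%), and the NRF1 word GCATGCGC in 8 (11.8%, against 3.74% and 2.78%). Within the 250 upstream bases, Mrps11 was the only member with the YY1 word. The other YY1 matches, and part of the ETS matches, reached into the 50 bases after the start. All 8 NRF1 matches lay upstream, and the comparison windows were not split by position. The E-box CACGTG was in 5 (7.35%, against 7.97% and 7.09%) and the TATA word TATAAA in 4 (5.88%, against 12.6% and 14.1%). Each word was searched by itself, so a base can lie in more than a single word. By call in ILC1/3P over CLP, the ETS word was in 17 of 37 windows of higher members, 1 of 3 of lower members and 7 of 28 of the rest. The YY1 word was in 5, 2 and 5 of these windows, and the NRF1 word in 4, 0 and 4. The median GC content was 58.0% in member windows and 57.0% in those of protein-coding genes.

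In 53 of the 68 members the 250 upstream bases hold bases of annotated exons. Of the other 15, 7 are shown 5′ to 3′ on the gene's strand with matched words in capitals: the 4 with the ETS word, of which Mrpl34 and Mrpl48 were higher in ILC1/3P over CLP and Mrpl52 and Mrps22 were not called, then Mrpl41 and Mrpl42, which rose with none of the 5 words upstream, and Mrpl45, which fell with none.
Mrpl34 (chr8:71464676-71464925, plus strand): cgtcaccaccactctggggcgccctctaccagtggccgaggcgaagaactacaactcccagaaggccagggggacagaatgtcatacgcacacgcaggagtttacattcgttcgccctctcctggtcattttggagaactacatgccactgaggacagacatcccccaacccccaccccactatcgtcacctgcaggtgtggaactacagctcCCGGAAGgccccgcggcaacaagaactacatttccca
Mrpl48 (chr7:100583131-100583380, minus strand): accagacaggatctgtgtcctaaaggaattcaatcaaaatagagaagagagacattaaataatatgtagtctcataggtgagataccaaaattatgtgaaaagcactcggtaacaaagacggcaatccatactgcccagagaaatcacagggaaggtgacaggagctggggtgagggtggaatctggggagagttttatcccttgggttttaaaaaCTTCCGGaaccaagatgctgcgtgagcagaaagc
Mrpl52 (chr14:54426659-54426908, plus strand): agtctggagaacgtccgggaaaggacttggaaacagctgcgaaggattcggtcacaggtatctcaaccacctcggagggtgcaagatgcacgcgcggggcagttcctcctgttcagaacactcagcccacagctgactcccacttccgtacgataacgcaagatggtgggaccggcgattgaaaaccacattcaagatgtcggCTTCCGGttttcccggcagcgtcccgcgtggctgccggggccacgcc
Mrps22 (chr9:98601680-98601929, minus strand): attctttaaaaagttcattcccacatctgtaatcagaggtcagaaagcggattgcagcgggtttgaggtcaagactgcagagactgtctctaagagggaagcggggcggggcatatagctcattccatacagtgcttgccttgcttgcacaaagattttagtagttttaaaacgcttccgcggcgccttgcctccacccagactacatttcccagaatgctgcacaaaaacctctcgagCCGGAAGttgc
Mrpl41 (chr2:24975099-24975348, minus strand): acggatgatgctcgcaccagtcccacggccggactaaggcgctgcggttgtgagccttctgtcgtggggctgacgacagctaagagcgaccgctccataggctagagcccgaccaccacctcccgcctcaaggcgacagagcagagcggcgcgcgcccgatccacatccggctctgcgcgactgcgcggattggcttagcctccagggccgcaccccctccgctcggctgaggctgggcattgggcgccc
Mrpl42 (chr10:95501950-95502199, minus strand): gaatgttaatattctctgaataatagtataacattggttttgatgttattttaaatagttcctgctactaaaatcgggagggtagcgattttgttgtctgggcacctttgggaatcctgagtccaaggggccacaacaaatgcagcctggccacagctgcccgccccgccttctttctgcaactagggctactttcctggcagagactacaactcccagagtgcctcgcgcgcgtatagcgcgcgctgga
Mrpl45 (chr11:97315466-97315715, plus strand): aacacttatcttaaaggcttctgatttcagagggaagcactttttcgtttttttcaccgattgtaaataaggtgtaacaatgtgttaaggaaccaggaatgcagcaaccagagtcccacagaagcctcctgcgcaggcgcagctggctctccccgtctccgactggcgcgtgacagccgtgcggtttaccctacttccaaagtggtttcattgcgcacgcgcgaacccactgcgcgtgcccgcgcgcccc
The capitals in Mrpl34, Mrpl48, Mrpl52 and Mrps22 mark the ETS word or its reverse complement. A match is a run of letters and not a measured binding site.

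**Figure D4:**
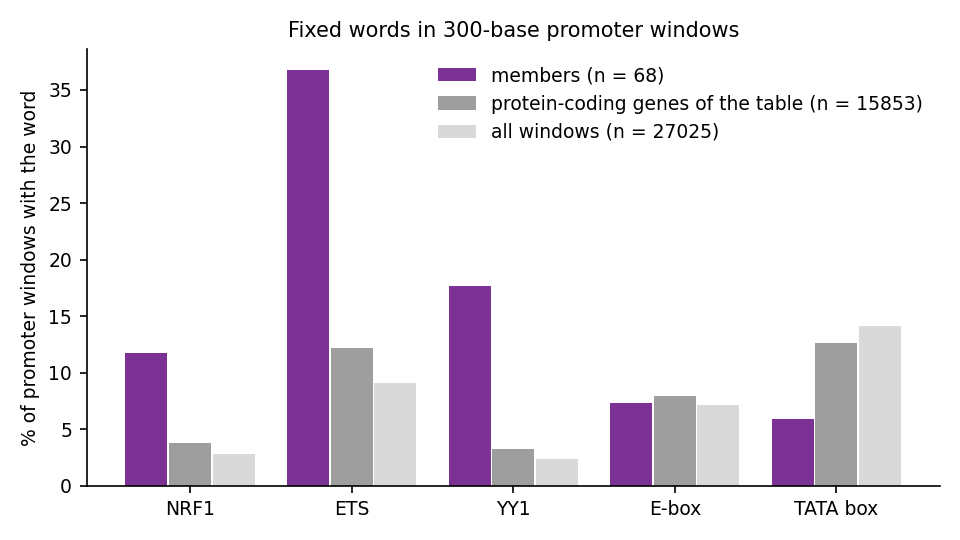
Percentage of RefSeq promoter windows that hold each of 5 words, on either strand, for 68 members, 15853 protein-coding genes of the table and all 27025 windows. The ETS, YY1 and NRF1 words were in a larger share of member windows (36.8%, 17.6% and 11.8%) than of the 2 comparison sets, and the TATA word in a smaller one (5.88%).

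Mrps11 and Mrpl46, a small- and a large-subunit gene that start head to head on chromosome 7 and share 173 exon bases, moved alike. Mrps11 had 214 and 406 CPM in ILC1/3P and 120.3, 127 and 111 in ILCP, against 87.3, 88.4 and 117 CPM in CLP. Mrpl46 had 448 and 674 CPM in ILC1/3P and 174, 204 and 183 in ILCP, against 132, 174 and 143 CPM in CLP. Replicate 2 of ILC1/3P was the higher library for both genes, and both ILC1/3P libraries exceeded the rest. The log2 fold change over CLP was 1.67 ± 0.30 for Mrps11 (adjusted p = 0.0021, edgeR) and 1.90 ± 0.25 for Mrpl46 (adjusted p = 0.00031, edgeR). Since the use of strand in counting is not given, reads in the shared bases could be assigned to either gene.

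ILC1/3P over ILCP uses the same ILC1/3P libraries, so the 2 comparisons are not independent and are given side by side. In ILC1/3P, 41 of 77 members were higher and 5 lower than in ILCP, where 8.06% of all genes were called higher and 8.25% lower, 16.3% in either direction. A log2 fold change above 0 was found in 57 members, against 42.5% of all genes. The median log2 fold change was 0.97, beside −0.23 over all genes. The groups did not overlap for 55 members higher in ILC1/3P and 8 lower, against 20.2% and 24.7% of all genes. By subunit, 29 of 50 large-subunit genes were higher and 4 lower, and 12 of 26 small-subunit genes were higher and 1 lower. With a bacterial counterpart, 30 of 47 were higher and 1 lower; of the mitochondria-specific members, 11 of 29 were higher and 4 lower.

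The leading increases over ILCP were Mrpl42 (log2 fold change 2.44 ± 0.33, adjusted p = 0.00094, edgeR), Mrpl27 (2.43 ± 0.32) and Mrps18c (2.42 ± 0.29), then Mrpl17, Mrpl33, Mrpl41, Mrpl1 and Mrps21. Mrpl17, the counterpart of bacterial L17, had 507 and 694 CPM in ILC1/3P and 152, 99.4 and 142 in ILCP, against 79.7, 192 and 198 CPM in CLP, and its log2 fold change over ILCP was 2.20 ± 0.37 (adjusted p = 0.0028, edgeR). Mrpl1, whose bacterial counterpart forms a mobile stalk at the exit of spent transfer RNA, averaged 361 ± 113 CPM in ILC1/3P and 85.8 ± 25.4 in ILCP, against 103 ± 23.5 CPM in CLP (SD, n = 2, 3 and 3). Mrps21, the counterpart of bacterial S21, has a pseudogene copy of 97.3% identity and averaged 143 ± 38.7 CPM in ILC1/3P and 34.9 ± 8.94 in ILCP, against 43.5 ± 28.9 CPM in CLP. Its call over ILCP was lost without ILCP replicate 1, without ILCP replicate 3 and without ILC1/3P replicate 2, and with offsets on the longest transcript (log2 fold change 1.22, beside 2.03). For Mrpl53, the leading gene over CLP, the value over ILCP was 1.65 ± 0.56 and did not pass (adjusted p = 0.067, edgeR).

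Below ILCP were Mrps27 (log2 fold change −2.19 ± 0.49, adjusted p = 0.011, edgeR), Mrpl45 (−1.69 ± 0.26), Mrps30 (−1.29 ± 0.30), Mrpl38 (−1.05 ± 0.30) and Mrpl4 (−1.04 ± 0.25). Mrps35, lower than in CLP, was at −0.93 ± 0.36 over ILCP and was not called (adjusted p = 0.11, edgeR). The call of Mrpl38 was lost in 7 of the 8 fits that leave out 1 library and that of Mrpl4 in 3, and those of Mrps27, Mrps30 and Mrps12 were lost without ILC1/3P replicate 2. Without that library, the member median was 0.94 beside −0.32 over all genes, and without ILC1/3P replicate 1 it was 1.07 beside −0.43. Without ILCP replicate 1, 28 members were higher and 3 lower than in ILCP, and without ILCP replicate 3, 29 and 4. Calls over all genes fell too, from 1083 higher and 1109 lower of 13436. They were 692 and 727 of 13153 without ILCP replicate 1, and 725 and 689 of 13138 without ILCP replicate 3. When TMM was replaced by library size alone, 20 were higher and 10 lower, against 3.55% and 15.9% of all genes, and the median was 0.36, beside −0.86 over all genes.

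**Figure D5:**
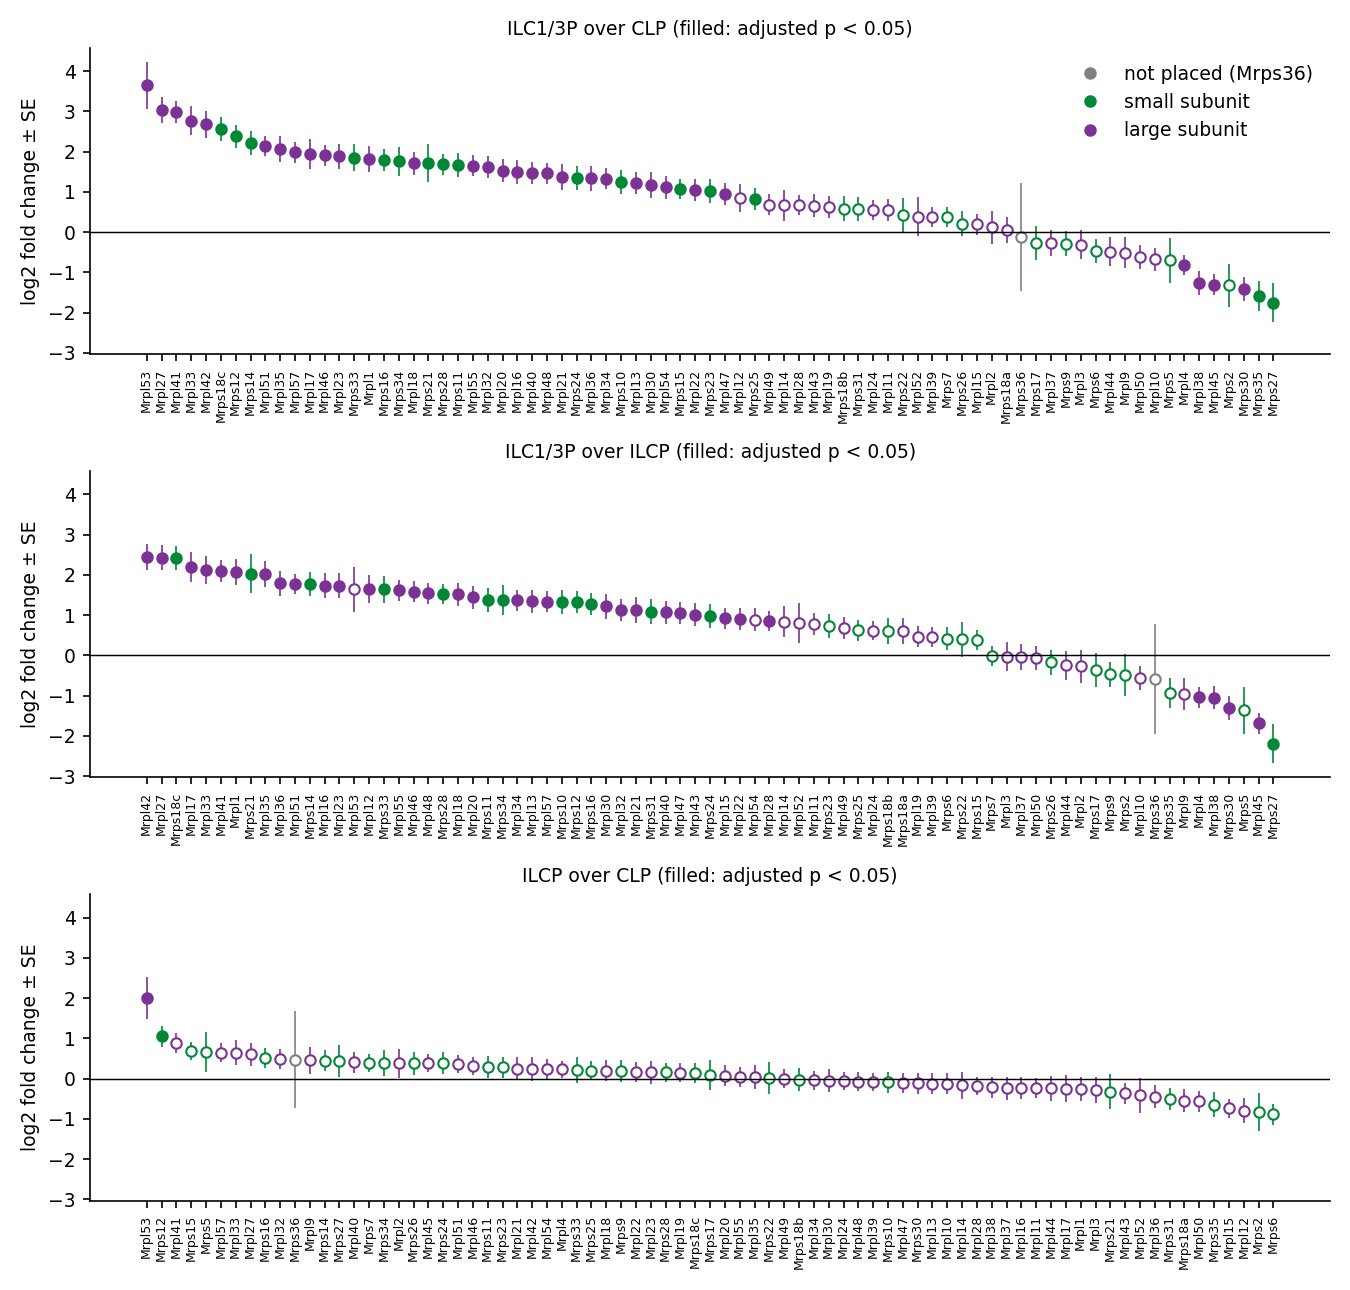
Log2 fold change ± SE of each of the 77 members, ranked within each comparison: ILC1/3P over CLP (top), ILC1/3P over ILCP (middle) and ILCP over CLP (bottom). Filled points passed an adjusted p under 0.05 (47, 46 and 2 members), purple marks the large subunit, green the small subunit and grey Mrps36.

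Few members differed between ILCP and CLP at the threshold used. In this comparison, which shares its libraries with the other two, 2 of 77 members were higher in ILCP and 0 lower at an adjusted p under 0.05 (edgeR), where 3.91% of all genes were called higher and 2.87% lower, 6.79% in either direction. A log2 fold change above 0 was found in 44 members, against 50.3% of all genes, and the median log2 fold change was 0.09 beside 0.01. At an unadjusted p under 0.05, 5 members were higher and 3 lower, against 10.6% and 9.51% of all genes, and DESeq2 called 4 higher and 2 lower, against 6.47% and 5.52% of all genes. Mrps12 was higher in ILCP by 1.05 ± 0.26 (adjusted p = 0.030, edgeR), with no overlap between the libraries given above. Mrpl53 was higher by 2.00 ± 0.53 (adjusted p = 0.044, edgeR), although the lowest ILCP library, 22.01 CPM, lay below the highest CLP library, 22.19 CPM. Neither call held in every fit that leaves out 1 library: Mrps12 was lost in 5 of the 8 and Mrpl53 in 4. When TMM was replaced by library size alone, both calls were lost and Mrpl41 was the 1 member called. Mrpl41 (0.89 ± 0.25, adjusted p = 0.054, edgeR) and Mrps6, a small-subunit protein with a bacterial counterpart (−0.89 ± 0.26, adjusted p = 0.073, edgeR), missed the threshold with groups that did not overlap. In all, 10 of 77 members were higher and 7 lower in ILCP without overlap, against 14.1% and 14% of all genes.

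Other genes of the pathway were taken from lists compiled by known function. For comparison with each list, 11.8% of all genes were called higher and 11.7% lower in ILC1/3P over CLP. Over ILCP these shares were 8.06% and 8.25%. Of 7 mitoribosome proteins with other names, 5 were higher and 1 lower in ILC1/3P over CLP, and 5 and 1 over ILCP; the list holds the member Mrpl57. Chchd1, a small-subunit protein, was at 702 ± 76.4 CPM in ILC1/3P and 199 ± 76.4 in ILCP, against 197 ± 38.6 CPM in CLP (SD, n = 2, 3 and 3). Aurkaip1, also of the small subunit, was higher than in CLP by 1.79 ± 0.25 on the log2 scale, and Mrpl57 of the large subunit by 1.98 ± 0.26. Dap3, a small-subunit protein, was not called (−0.68 ± 0.35, adjusted p = 0.18, edgeR). Ptcd3, a pentatricopeptide repeat protein of the small subunit like Mrps27, went the other way, with 29.9 ± 2.84 CPM in ILC1/3P and 103 ± 16.0 in ILCP, against 145 ± 12.2 CPM in CLP (log2 fold change over CLP −2.27 ± 0.30, adjusted p = 0.00028, edgeR).

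Of 23 factors that assemble the mitoribosome or modify its RNA, 1 was higher and 6 were lower in ILC1/3P over CLP, and 1 and 6 over ILCP. Malsu1, which keeps the large subunit from joining too early, was the increase, at 1.55 ± 0.32. Among the decreases over CLP were the RNA methyltransferase Nsun4 (−2.09 ± 0.49, adjusted p = 0.0091, edgeR), the large-subunit RNA factor Fastkd2 (−1.73 ± 0.42) and the small-subunit maturation factor Rbfa (−2.11 ± 0.53). The median log2 fold change of this list over CLP was −0.83, beside 1.01 for the members and −0.25 for all genes. Its median transcript was 2477 bases. Tested genes of 2 to 4 kb that are not members had a median of −0.54, with 8.50% called higher and 15.2% lower. With DESeq2 median-ratio size factors in edgeR, the list gave 1 higher and 4 lower over ILCP. Over all 13436 genes, that scaling called 1143 higher and 1020 lower. Of 15 translation factors, 1 was higher and 1 lower in each of these comparisons: Slirp, which stabilises mitochondrial messenger RNA (0.90 ± 0.27 over CLP), and Guf1, the elongation factor known as EF4 in bacteria (−2.09 ± 0.56 over CLP).

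The mitochondrial messenger RNAs themselves took 4.91% and 5.39% of counts in ILC1/3P, 2.71% to 4.13% in ILCP and 2.70% to 4.53% in CLP. Of the 13, 6 were higher and 0 lower in ILC1/3P over CLP, and 7 and 0 over ILCP. Their median transcript was 784 bases, and their median log2 fold change was 0.93 over CLP and 1.22 over ILCP. Tested genes up to 1 kb that are not members had medians of 1.00 and 0.81. Of those genes, 31.8% were called higher and 3.71% lower over CLP, and 25.6% and 1.32% over ILCP. The part of length in these calls was not tested. Over CLP, mt-Cytb, which encodes the cytochrome b of complex III, was higher by 1.71 ± 0.34 (adjusted p = 0.0038, edgeR), mt-Nd2 of complex I by 1.57 ± 0.30, and mt-Atp6 of ATP synthase by 1.40 ± 0.33. The mitochondrial ribosomal RNAs are not analysed here. Of 9 genes for transcription and replication of mitochondrial DNA, edgeR called 0 in either comparison, where 1 was higher and 1 lower over CLP and 2 and 0 over ILCP at an unadjusted p under 0.05, beside 16.7% and 19.8% of all genes over CLP and 13% and 16.8% over ILCP; Tfam, which packages that DNA, was at 0.90 ± 0.36 over CLP (adjusted p = 0.092, edgeR). Among 8 tested regulators of mitochondrial biogenesis, Myc, a transcription factor of cell growth, was the only call in ILC1/3P over CLP, in ILC1/3P over ILCP and in ILCP over CLP, at 15.1 ± 2.33 CPM in ILC1/3P and 39.2 ± 7.98 in ILCP, against 258 ± 31.9 CPM in CLP. Nrf1 (−0.30 ± 0.62) and Gabpa (−0.32 ± 0.43) were not called in ILC1/3P over CLP. When TMM was replaced by library size alone, the proteins with other names gave 4 higher and 2 lower over CLP, the assembly factors 1 and 10, the translation factors 0 and 3 and the mitochondrial messenger RNAs 3 and 0. Over ILCP these lists gave 2 and 2, 0 and 8, 0 and 3, and 4 and 0 with that scaling. It called 7.06% of all genes higher and 20.9% lower over CLP, and 3.55% and 15.9% over ILCP. None of the calls named here changed sign, but those of Slirp and mt-Atp6 over CLP, and of Slirp, Malsu1, Mrpl57 and mt-Nd2 over ILCP, were lost.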

How the data were processed

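Gene expression was measured in 8 libraries grouped by their titles: ILC1/3P (2), ILCP (3) and CLP (3). Per the labels' protocols, cDNA was made in lysates of sorted cells with a SMARTer Ultra Low kit, amplified by PCR and sequenced on a NovaSeq6000; no molecular identifiers are described. The authors deposited whole-number counts per gene and FPKM, with build mm10 per the submitters' processing notes; the sources used here name no aligner, counter, annotation or strand setting. The deposited FPKM equal the count per library total and per a fixed gene length.

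The test was that of edgeR 4.0.16 (R 4.3.3; robust quasi-likelihood fit, TMM, filterByExpr, 1 mean per group over all 8 libraries, 5 residual degrees of freedom, two-sided, Benjamini-Hochberg over 13436 genes, called under 0.05); the spread of the 2 ILC1/3P libraries is thus assumed like that of the others. DESeq2 1.42.0 was an alternative, beside other scalings, filters, length offsets, left-out libraries and the replicate block. CPM use TMM factors. The SE of a log2 fold change was its absolute value divided by the square root of the quasi-likelihood F statistic. Lengths, exons and pseudogene copies (blastn 2.17.0, at least 95% identity over 200 bases) came from GENCODE M21. The fit was tested on simulated data. Members and lists were chosen with earlier results of these data known. Members named were, per comparison and direction, the 8 called with the largest fold change, the 2 with the smallest p, all called against the majority, and the 5 highest and 3 lowest in FPKM; of other lists, up to 4 called genes per comparison by p. Mrps11, Mrpl46, Mrps18a, Mrps18b, Mrps6, Mrpl22, Mrpl54, Mrps15, the members of the promoter and per-kilobase accounts, the uncalled genes of other lists and the added per-library values were chosen after their values were seen.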

Additional observations from a re-analysis of the deposited data

How the results depend on the processing

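For ILCP over CLP, the count of members called higher, 2, became 4 with DESeq2, 3 with no filter and 3 with the filter of 1 CPM, 1 with library size as the only scaling, where Mrpl41 was called and neither Mrps12 nor Mrpl53, 1 with only the 2 groups in the fit, 1 with offsets on the length implied by the FPKM and 0 with offsets on the longest transcript; members called lower, 0, became 2 with DESeq2 and 1 with each of the 3 length offsets. For ILC1/3P over CLP, library size as the only scaling gave 26 higher, 12 lower and a median of 0.34, and members lower were 2 with offsets on the longest transcript and 3 with offsets on length and GC content. For ILC1/3P over ILCP, library size gave 20 higher, 10 lower and a median of 0.36, and members lower were 3 and 2 with those offsets. Over all genes, those offsets gave 1096 and 1185 lower of 13390 in ILC1/3P over CLP, from 1571 of 13436. In ILC1/3P over ILCP they gave 672 and 736 lower, from 1109. The offsets on the longest transcript and on length and GC content were chosen after seeing the data. When 1 library was left out, ILCP over CLP gave 0 to 2 higher and a median of −0.10 to 0.17, ILC1/3P over CLP 33 to 41 higher and 3 to 6 lower, and ILC1/3P over ILCP 25 to 42 higher and 1 to 5 lower. Of the calls, 33 of 47, 24 of 46 and 0 of 2 (ILC1/3P over CLP, ILC1/3P over ILCP, ILCP over CLP) held without any single library. Calls over all genes moved too. In ILCP over CLP, 526 genes were higher and 386 lower of 13436. With DESeq2 there were 869 and 741, and with library size alone 488 and 375. No filter gave 754 and 602 of 18766, and the filter of 1 CPM 659 and 538 of 11912. The fit of 2 groups gave 595 and 539 of 12010. Offsets on the implied length gave 523 and 380 of 13436. Of 13390 genes, offsets on the longest transcript gave 523 and 381, and those on length and GC content 554 and 432. Without ILCP replicate 1, ILC1/3P over ILCP gave 692 genes higher and 727 lower of 13153, from 1083 and 1109 of 13436. Where counts moved, the cause was not tested.

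Deviations of same-numbered libraries from their group means correlated at −0.033 to 0.087, and those of unlike-numbered libraries at −0.093 to 0.033. With 2 ILC1/3P libraries, their deviations mirror each other by construction. These values therefore cannot decide whether the replicate numbers pair the libraries. With the replicate block, 1 member was higher and 0 lower in ILCP over CLP (Mrpl41, while Mrps12 and Mrpl53 lost their calls), 38 and 5 in ILC1/3P over CLP, and 35 and 4 in ILC1/3P over ILCP. Over all 13436 genes, the block gave 445 higher and 296 lower in ILCP over CLP, from 526 and 386. It gave 1392 and 1232 in ILC1/3P over CLP, from 1592 and 1571. In ILC1/3P over ILCP it gave 944 and 809, from 1083 and 1109. No called value of a named member changed sign under the alternatives run. The 2 ILC1/3P libraries limit every comparison that uses them.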
